A study of Homo sapiens with 12 samples.

Results

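Embryonic, fetal and adult globin genes, together with the alpha chain chaperone gene AHSP, were followed through 11 RNA sequencing libraries of K562 cells exposed to fatty acids. The 10 genes, all found in the tables by exact symbol, were HBZ, HBM, HBA2 and HBA1 of the alpha cluster, HBE1, HBG2, HBG1, HBBP1 and HBD of the beta cluster, and AHSP, out of 23153 genes shared by the 3 deposited tables. K562 is an established human leukemia line with erythroid features, and its fatty acids were given as a complex with albumin.

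Every condition was represented by 1 library per experiment, made from RNA pooled from 3 biological replicates. Experiment 1 held wild-type (WT) cells given palmitoleate, a monounsaturated fatty acid, WT cells given palmitate, the saturated acid of the same chain length, and untreated WT cells. Experiment 2 held WT cells given palmitate and palmitoleate together, GPAT4ko cells given palmitate, WT cells given palmitate and untreated WT cells. GPAT4ko cells carry a knockout of the glycerol-3-phosphate acyltransferase GPAT4. Experiment 3 held RNF213kd cells, in which the ubiquitin ligase RNF213 was knocked down, given palmitate or untreated, and WT cells given palmitate or untreated. Palmitate was used at 0.2 mM, for 20 h as labelled, although the table legends of experiments 2 and 3 state 16 h. The legend of experiment 2 gives 0.2 mM palmitoleate in the mixture. No dose is given for palmitoleate alone, and the labels do not say how the knockout or knockdown was made or whether a line is 1 clone. A labelled library of untreated GPAT4ko cells was not analysed here.

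Hemoglobin is assembled from alpha-type and beta-type globin chains, and the genes of each cluster are switched during development, from embryonic forms in the yolk sac to fetal and then adult forms. HBZ encodes the embryonic zeta chain, and HBA1 and HBA2 encode the same alpha chain, which fetal and adult hemoglobins hold. HBE1 encodes the embryonic epsilon chain, HBG1 and HBG2 the fetal gamma chains, and HBD the delta chain of a minor adult hemoglobin. HBBP1 is a transcribed pseudogene that lies between the gamma and delta genes, HBM encodes a rarely used alpha-type chain, and AHSP is a chaperone that binds free alpha chains before they enter hemoglobin. K562 cells are known for transcribing embryonic and fetal rather than adult globins.

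The alpha-cluster genes lie on chromosome 16 of hg19, HBZ from 202854 to 204504, HBM from 215973 to 216767, HBA2 from 222846 to 223709 and HBA1 from 226679 to 227520, and AHSP lies on the same chromosome from 31539203 to 31540124. The beta-cluster genes lie on chromosome 11, HBD from 5254059 to 5255858, HBBP1 from 5263185 to 5264822, HBG1 from 5269502 to 5271087, HBG2 from 5274421 to 5276011 and HBE1 from 5289580 to 5291373. The reference transcripts of HBA2 and HBA1 are 96.5% identical and those of HBG2 and HBG1 99.1% identical, gaps included. How the authors' counting divided reads within these pairs is uncertain, and sums of each pair are therefore given beside the single genes.

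The RefSeq promoter table (GRCh38.p14) held 2 of the 10 genes, HBD, which had the lowest palmitate ratio of the protein-coding members, and HBM, the member that was barely detected. The 250 bases before each start are shown on the gene's strand, at chr11:5234484-5234733 (minus strand) for HBD and chr16:165728-165977 (plus strand) for HBM. Capitals mark matches, on either strand, to any of 5 short motifs. CACCC is the core bound by factors of the KLF type. The letters CCAAT are the core of NF-Y elements. Factors of the GATA family bind sites that hold GATAA. The gamma gene promoters are known to carry TGACCA. Elements like the TATA box were searched as ATAAA.
HBD: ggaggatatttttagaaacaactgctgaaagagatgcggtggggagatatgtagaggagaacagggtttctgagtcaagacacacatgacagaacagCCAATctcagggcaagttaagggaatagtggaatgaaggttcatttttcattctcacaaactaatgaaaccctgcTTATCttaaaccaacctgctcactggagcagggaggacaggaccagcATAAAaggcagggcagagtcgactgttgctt
HBM: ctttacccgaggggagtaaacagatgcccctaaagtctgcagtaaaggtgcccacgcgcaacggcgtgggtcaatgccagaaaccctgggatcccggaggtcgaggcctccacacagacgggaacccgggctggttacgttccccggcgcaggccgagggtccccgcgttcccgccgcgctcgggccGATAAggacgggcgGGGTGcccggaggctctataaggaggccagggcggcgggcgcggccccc

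The HBD window held CCAAT starting 153 bases before the start, GATAA on the opposite strand at 78 bases and ATAAA at 31 bases, and neither CACCC nor TGACCA. The HBM window held GATAA at 63 bases and CACCC on the opposite strand at 49 bases, and none of the other 3 motifs. Such short motifs were common: among 35116 promoter windows of the same length, CACCC occurred in 54.7%, ATAAA in 32.7%, CCAAT in 32.0%, GATAA in 20.4% and TGACCA in 9.19%. The matches are letters only, and binding was not measured.

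The values are FPKM, fragments per kilobase of transcript scaled to library size, so levels of different genes within a library are per length. The 11 libraries summed to between 612355 and 821188 FPKM. As FPKM carry no read counts, the depth is unknown and no detection limit could be set. The knockout and knockdown labels were read against their target genes: GPAT4, listed as AGPAT6, stood at 8.77 FPKM in GPAT4ko cells with palmitate and at 20.0 FPKM in WT cells with palmitate, and RNF213 stood at 1.54 and 1.39 FPKM in RNF213kd cells with and without palmitate, against 3.08 and 1.96 FPKM in WT cells with and without it. The erythroid markers GYPB, GYPC, GATA1, TAL1, EPOR, TFRC and KEL summed to 306 to 739 FPKM per library, with all 7 reaching 1 FPKM. Their sum was 582, 306 and 327 FPKM with palmitate against 674, 602 and 418 FPKM untreated in WT cells of experiments 1 to 3. Within it, TFRC was higher with palmitate in experiment 1 (314 against 191 FPKM) and lower in experiments 2 (117 against 143 FPKM) and 3 (150 against 166 FPKM). Of the 7, 3 (GATA1, EPOR and KEL) fell and 0 rose, where 7.52% of all tested genes were called lower and 9.33% higher. GATA1 and TAL1 also count among the globin regulators below, and TFRC among the heme and iron genes. Of the 9 megakaryocyte markers 4 reached 1 FPKM, with sums of 19.2 to 90.2 FPKM. Of these markers, ITGB3 rose with palmitate in WT cells (log2 ratio 2.34, limma adjusted p = 0.00758), at 3.72, 24.9 and 3.46 FPKM with palmitate against 0.590, 1.13 and 0.2498 FPKM untreated, and GP1BB fell (log2 ratio -1.11, limma adjusted p = 0.0455). The 3 fibroblast collagens summed to at most 3.01 FPKM. Markers of B cells, monocytes and endothelial cells summed to at most 0.908 FPKM per library. The T-cell marker CD3D (12.03 to 39.5 FPKM) and the 3 epithelial markers EPCAM, KRT8 and KRT18 (summed 208 to 1242 FPKM) were present in every library. The other T-cell markers, CD3E and CD2, reached at most 0.543 and 0.0228 FPKM. KRT18 rose with palmitate in WT cells (log2 ratio 0.95, limma adjusted p = 0.0412), and the epithelial sum was 332, 1242 and 522 FPKM with palmitate against 302, 409 and 289 FPKM untreated. The 3 epithelial markers did not move together. EPCAM had log2 ratios of -0.03, -1.23 and -1.10 in experiments 1 to 3, KRT8 had -0.24, 1.81 and 1.38, and neither was called. The part of these shifts in the globin results was not tested.

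Untreated WT cells transcribed mainly embryonic and fetal globins, but in proportions that differed widely between experiments. HBE1 stood at 2620, 9192 and 766 FPKM in experiments 1 to 3, and HBZ at 2260, 1446 and 304 FPKM. HBG2 stood at 2428, 4714 and 4469 FPKM and HBG1 at 2120, 2131 and 4111 FPKM. The alpha genes ran the other way from HBZ, with HBA1 at 69.0, 143 and 562.3 FPKM and HBA2 at 29.4, 162 and 479 FPKM. The highest untreated library thus exceeded the lowest 12.01-fold for HBE1, 7.44-fold for HBZ and 16.3-fold for HBA2, but 1.94-fold for each of the gamma genes. The tables were scaled separately, so these folds compare levels across tables and carry any difference in scaling.

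The other members were less abundant. AHSP stood at 74.6, 41.1 and 11.1 FPKM in untreated WT cells, HBD at 33.2, 40.1 and 8.84 FPKM and the pseudogene HBBP1 at 99.03, 163 and 17.8 FPKM, all lowest in experiment 3. HBM was at or near 0 throughout, listed at 0 in 6 of the 11 libraries and at no more than 0.108 FPKM in the others. It did not pass the filter of a mean of 1 FPKM and enters no test, while the other 9 genes were above 1 FPKM in every library.

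**Figure D1:**
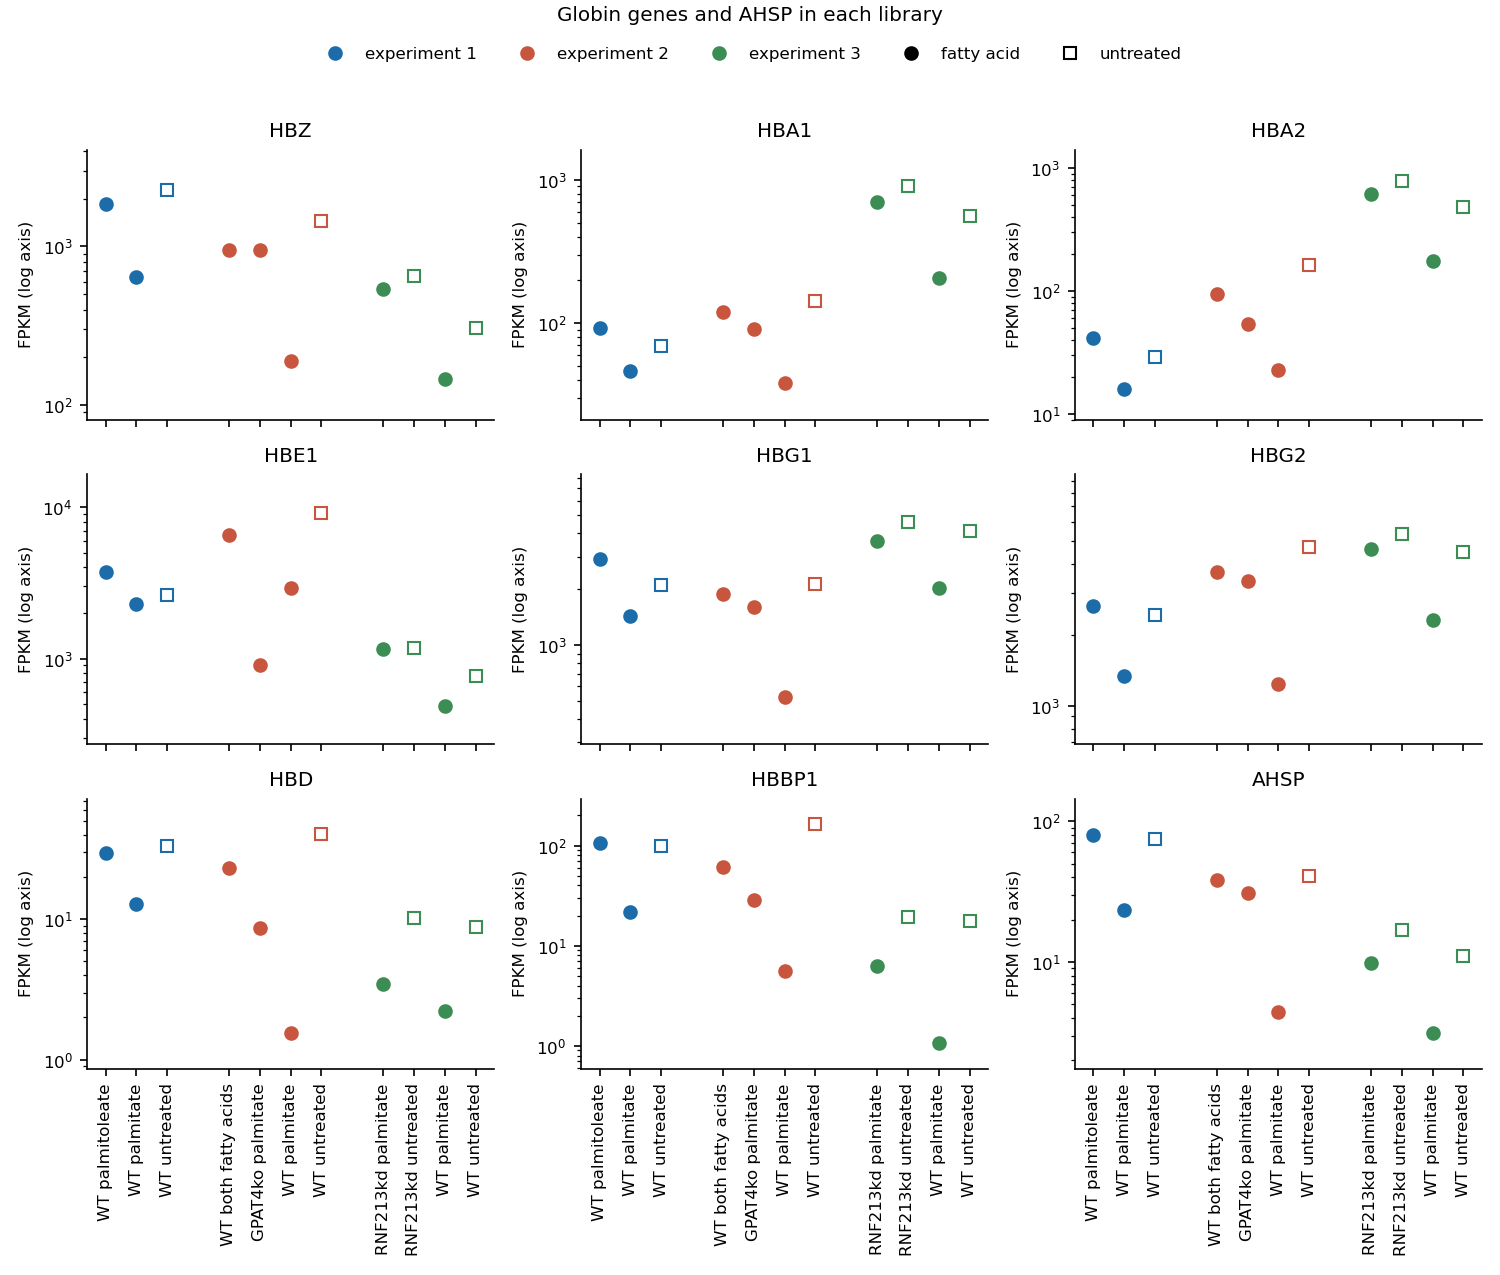
FPKM on a log axis (own range per gene) for 9 genes in each of the 11 libraries, grouped by experiment (colour); filled circles are libraries with fatty acid and open squares untreated ones, and each point is 1 library of pooled RNA. In each experiment the WT palmitate point lies below the WT untreated point for all 9 genes, and the level of untreated HBE1, HBZ, HBA1 and HBA2 shifts from experiment to experiment.

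The effect of palmitate on the globin genes of WT cells was measured in 3 experiments, each giving 1 ratio of palmitate to untreated on the log2(FPKM + 1) scale, tested with limma over 11108 genes with Benjamini-Hochberg adjustment. Of the 9 tested members 8 fell and 0 rose, where 7.52% of all tested genes were called lower and 9.33% higher. All 9 were lower in each of the 3 experiments, as were 29.3% of all tested genes. The median mean ratio of the 9 was -1.67, against -0.05 over all tested genes, and 8 of them were on average at least 2-fold lower, as were 5.27% of tested genes. These calls rest on the pairing by experiment and on the filter: limma called 0 of the 9 without the pairing, and 0 with no filter on low values, where all 9 mean ratios were still below 0. Fewer erythroid cells in the culture and less globin RNA per cell cannot be told apart in these bulk libraries.

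Among the alpha-type genes, HBZ stood at 638, 190 and 145 FPKM with palmitate in experiments 1 to 3, against 2260, 1446 and 304 FPKM untreated. The palmitate and untreated ranges overlapped across experiments, because untreated HBZ in experiment 3 was below the palmitate library of experiment 1, but within each experiment palmitate was lower. HBZ fell by 1.94 ± 0.33 on the log2 scale (SE, n = 3 experiments, adjusted p = 0.00879), with ratios of -1.82, -2.92 and -1.06.

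HBA1 stood at 46.3, 38.1 and 208 FPKM with palmitate against 69.0, 143 and 562.3 FPKM untreated, and fell by 1.29 ± 0.28 (adjusted p = 0.0203). HBA2 stood at 16.2, 22.9 and 178 FPKM with palmitate against 29.4, 162 and 479 FPKM untreated, and fell by 1.67 ± 0.35 (adjusted p = 0.0180). Both were lower within each experiment, while the untreated level of experiment 1 lay below the palmitate level of experiment 3. Taken as a sum, the pair had log2 ratios of -0.65, -2.30 and -1.43. These genes are GC-rich (transcripts of 66.3% and 67.3% GC, and 64.8% for HBZ), and in experiment 1 the palmitate ratio followed GC content across genes (Spearman's rho = -0.63 over 9667 genes, against -0.01 and 0.15 in experiments 2 and 3). With the GC trend removed, HBA1 was at -0.90 (adjusted p = 0.164) and HBA2 at -1.25 (adjusted p = 0.112), neither past the threshold, while HBZ was at -1.58 (adjusted p = 0.0378). Without experiment 2, HBA1 was at -0.996 (adjusted p = 0.0593).

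The chaperone gene AHSP stood at 23.4, 4.42 and 3.14 FPKM with palmitate, against 74.6, 41.1 and 11.1 FPKM untreated, and fell by 2.04 ± 0.31 (adjusted p = 0.00603). Each experiment showed the same direction, with ratios of -1.63, -2.96 and -1.54.

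Among the beta-type genes, the fetal genes fell and the embryonic gene did not pass. HBG1 stood at 1435, 525 and 2028 FPKM with palmitate, against 2120, 2131 and 4111 FPKM untreated, and fell by 1.20 ± 0.27 (adjusted p = 0.0236). HBG2 stood at 1340, 1234 and 2298 FPKM with palmitate, against 2428, 4714 and 4469 FPKM untreated, and fell by 1.25 ± 0.24 (adjusted p = 0.0131). For both gamma genes every palmitate library lay below every untreated library, which was so for no other member and for 14.4% of tested genes, and their sum had ratios of -0.71, -1.96 and -0.99. HBG1 was no longer past the threshold without experiment 2 (-0.79, adjusted p = 0.0745) or with the expression filter taken over all 11 libraries (adjusted p = 0.0556), and HBG2 was past it in both (adjusted p = 0.0273 and 0.0397).

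HBE1 stood at 2297, 2944 and 488 FPKM with palmitate, against 2620, 9192 and 766 FPKM untreated. Its mean ratio was -0.83 ± 0.27 with a 95% limma interval of -1.45 to -0.21 (adjusted p = 0.0706), and its 3 ratios ran from -0.19 in experiment 1 to -1.64 in experiment 2. HBE1 passed when genes under a mean of 5 FPKM were left out (adjusted p = 0.0439), without small RNA genes (adjusted p = 0.0325) and without experiment 1 (-1.15, adjusted p = 0.0396). Without experiment 2 it was at -0.42 (adjusted p = 0.516), and it did not pass with the GC trend removed (adjusted p = 0.141), without pairing (0.676) or with no filter (0.274).

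The delta gene and the pseudogene beside it had the lowest ratios. HBD stood at 12.8, 1.55 and 2.22 FPKM with palmitate, against 33.2, 40.1 and 8.84 FPKM untreated, and fell by 2.31 ± 0.47 (adjusted p = 0.0162), or by 1.46 without experiment 2 (adjusted p = 0.00561). The fit without experiment 2 holds fewer ratios per gene, so its p-value is not comparable with that of the main fit. HBBP1 stood at 21.9, 5.601 and 1.06 FPKM with palmitate, against 99.03, 163 and 17.8 FPKM untreated, and fell by 3.32 ± 0.42 (adjusted p = 0.00319). In both genes experiment 2 showed the lowest ratio, -4.01 for HBD and -4.64 for HBBP1, as it did for each of the 9 members. The difference between members was not tested, and the intervals of HBD (-3.39 to -1.23) and HBG2 (-1.79 to -0.71) overlap.

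**Figure D2:**
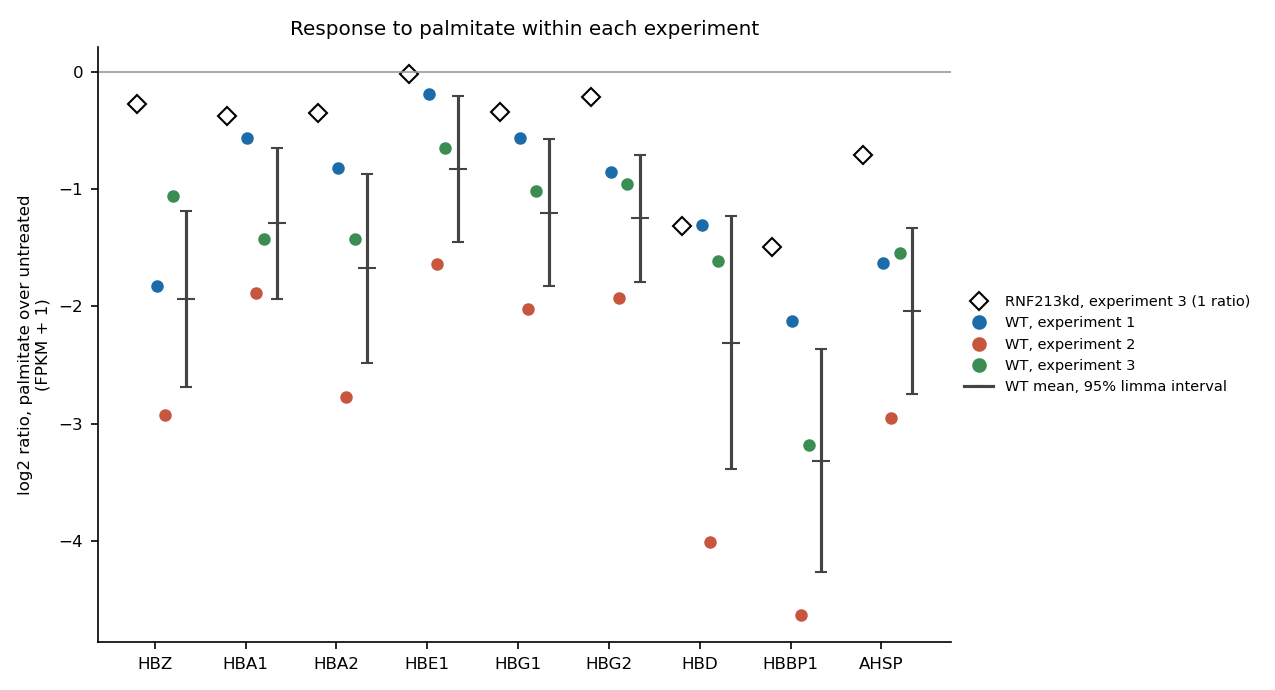
Log2 ratio of palmitate to untreated (FPKM + 1) for 9 genes; coloured circles are the WT ratios of experiments 1 to 3, the dash with bars is their mean with its 95% limma interval, and the open diamond is the single RNF213kd ratio. All WT ratios are below 0, experiment 2 is lowest for each gene, and the diamond lies above the 3 WT circles for 8 of 9 genes, HBD being the exception.

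Shares within a library do not depend on how the tables were scaled. The alpha-cluster sum is that of HBZ, HBM, HBA1 and HBA2 and the beta-cluster sum that of HBE1, HBG1, HBG2 and HBD; these sums hold the genes named and no others. The 10 genes took 0.713, 0.690 and 0.874% of the summed FPKM of the palmitate libraries and 1.38, 2.47 and 1.75% of the untreated ones. The alpha-cluster sum was 13.8, 5.33 and 11.02% of the beta-cluster sum with palmitate, against 32.8, 10.9 and 14.4% untreated, lower in 3 of 3 experiments (mean difference -9.30 percentage points, SD 8.45, exact sign-flip permutation test, two-sided p = 0.25, the smallest that 3 pairs allow). Without experiment 1 the mean difference was -4.46 percentage points. Experiment 1 had the largest difference (-18.98 percentage points), and its palmitate ratio followed GC content across genes (Spearman's rho = -0.63). Transcripts of HBZ, HBA1 and HBA2 hold 64.8 to 67.3% GC, and those of the beta-type genes in the sum 46.9 to 51.9%. The shares were not corrected for GC, and its part in this difference was not tested. In each of the 11 libraries the alpha-cluster sum was at most 32.8% of the beta-cluster sum.

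The embryonic share of the beta cluster was above untreated in each experiment, which 3 pairs cannot show beyond their spread in the exact test. HBE1 made up 45.2, 62.6 and 10.1% of beta-cluster FPKM with palmitate, against 36.4, 57.2 and 8.18% untreated, higher in 3 of 3 experiments by a mean of 5.38 percentage points (SD 3.42, exact sign-flip p = 0.25). The gamma genes together made up 54.6, 37.4 and 89.8% with palmitate, against 63.2, 42.6 and 91.7% untreated, and HBD 0.252, 0.0329 and 0.0461% against 0.461, 0.249 and 0.0945%. In the alpha cluster the HBZ share had no common direction: it was 91.1, 75.6 and 27.3% with palmitate, against 95.8, 82.5 and 22.6% untreated (mean difference -2.32 percentage points, SD 6.20, exact sign-flip p = 0.5). The experiments differed far more than the treatments did, with untreated HBE1 shares from 8.18 to 57.2% and untreated HBZ shares from 22.6 to 95.8%.

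**Figure D3:**
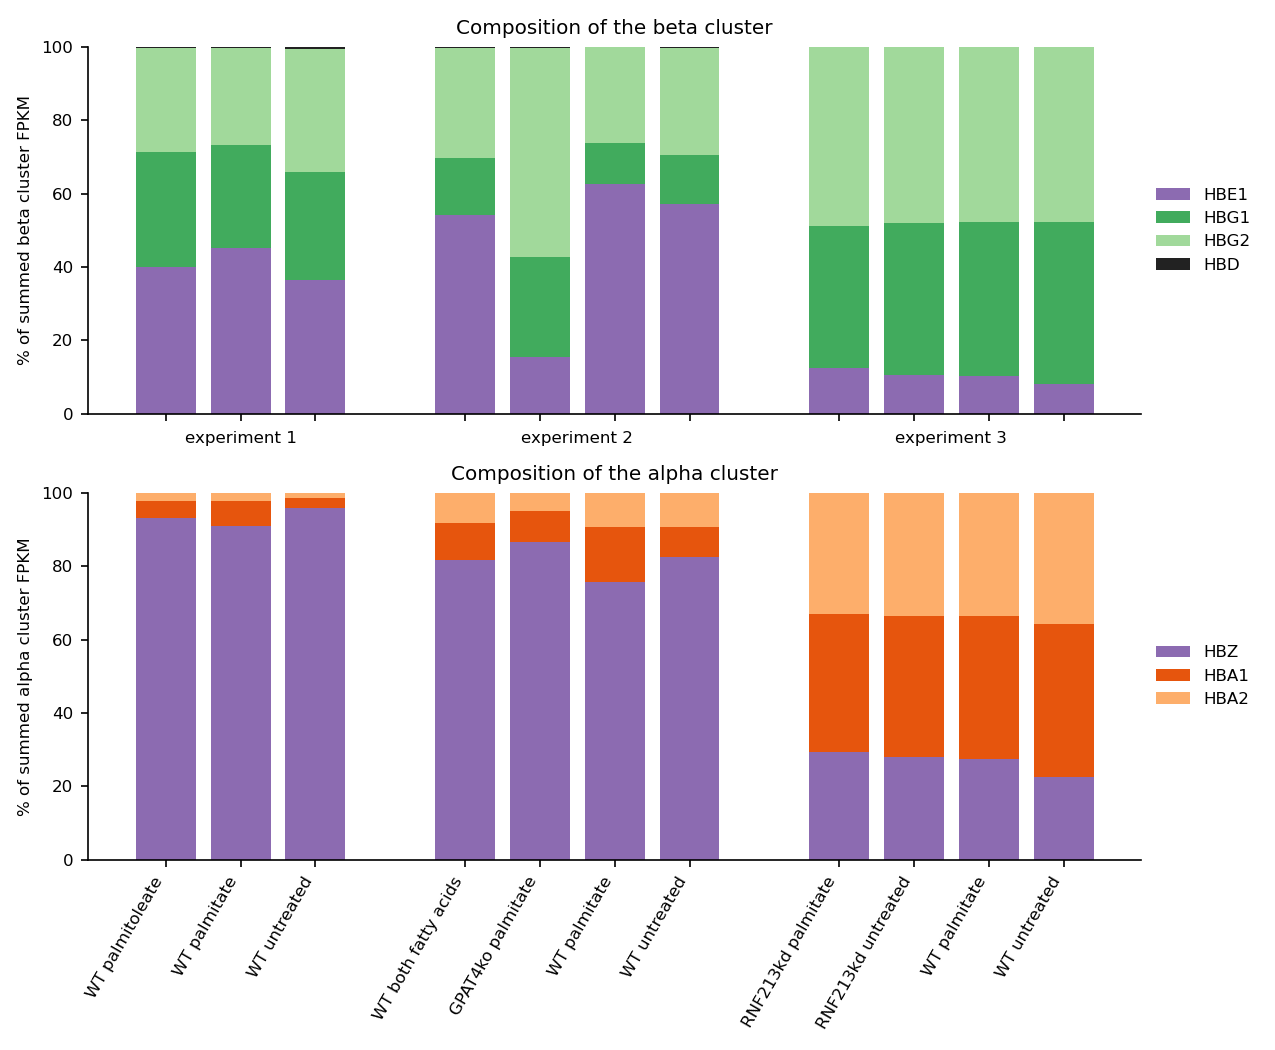
Stacked shares of summed FPKM for the beta cluster (top: HBE1, HBG1, HBG2, HBD) and the alpha cluster (bottom: HBZ, HBA1, HBA2; HBM is too low to be seen) in each of the 11 libraries, 1 library of pooled RNA per bar. HBE1 is the largest beta-type share in experiment 2 apart from the GPAT4ko library, where it is 15.4%, and HBZ gives way to HBA1 and HBA2 in experiment 3.

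Palmitoleate was compared in experiment 1 with 1 library per condition, so no test of the conditions is possible. Intervals for such pairs assume that a lone ratio varies as the WT palmitate ratios do between experiments, and calls rest on a 2-fold threshold. With palmitoleate, palmitate and no fatty acid in turn, HBZ stood at 1861, 638 and 2260 FPKM, HBE1 at 3716, 2297 and 2620 FPKM, HBG1 at 2923, 1435 and 2120 FPKM and AHSP at 80.2, 23.4 and 74.6 FPKM. The palmitoleate library thus lay near the untreated one or above it, and above the palmitate library for all 9 genes.

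Against palmitate, 6 of 9 members were at least 2-fold higher with palmitoleate, as were 1.19% of all tested genes. The log2 ratios ran from 0.69 for HBE1 (95% interval -0.38 to 1.77) to 2.22 for HBBP1 (0.57 to 3.87). HBA1 at 0.98 (-0.14 to 2.09) and HBG2 at 0.98 (0.03 to 1.92) lay just inside 2-fold. Against untreated, 0 of 9 members were past 2-fold in either direction, where 6.59% of tested genes were lower and 0.558% higher. Those ratios ran from -0.28 for HBZ (-1.58 to 1.01) to 0.50 for HBE1 (-0.57 to 1.58), intervals that hold 0 and are wide enough to hold a 2-fold difference, so that they do not show equality. This comparison followed GC content (Spearman's rho = -0.76). With that trend removed HBZ changed sign, to 0.53, and HBA1 was at 1.26 and HBA2 at 1.37. Palmitoleate differs from palmitate by a double bond; the doses could not be matched.

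When palmitoleate was given together with palmitate in experiment 2, the members lay between their palmitate and untreated levels. HBD stood at 23.2 FPKM with both acids, against 1.55 FPKM with palmitate alone and 40.1 FPKM untreated. HBE1 stood at 6585 FPKM with both, against 2944 and 9192 FPKM, and HBG2 at 3679 FPKM, against 1234 and 4714 FPKM. All 9 members were at least 2-fold higher with both acids than with palmitate alone, as were 9.11% of tested genes, with log2 ratios from 1.16 for HBE1 (95% interval 0.09 to 2.24) to 3.25 for HBD (1.38 to 5.12).

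Relative to untreated cells, all 9 ratios with both acids were below 0, from -1.42 for HBBP1 (95% interval -3.07 to 0.24) to -0.09 for AHSP (-1.32 to 1.13). Only HBBP1 of the 9 was past 2-fold lower, as were 0.594% of tested genes, at 60.6 FPKM with both acids against 163 FPKM untreated. The comparisons with palmitate alone and with untreated cells share the library that received both acids.

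In the GPAT4ko library with palmitate the globin pattern differed from that of WT cells with palmitate, and not in 1 direction. HBZ stood at 943 FPKM in GPAT4ko cells, against 190 FPKM in WT cells, HBG1 at 1610 against 525 FPKM, HBG2 at 3376 against 1234 FPKM and AHSP at 30.7 against 4.42 FPKM. HBE1 went the other way, at 912 FPKM in GPAT4ko cells against 2944 FPKM in WT cells, a log2 ratio of -1.69 (95% interval -2.76 to -0.61). Of the 9 members, 8 were at least 2-fold higher and 1 at least 2-fold lower, as were 6.82% and 8.47% of tested genes. The ratios of the 8 ran from 1.21 for HBA2 (-0.18 to 2.61) to 2.55 for AHSP (1.32 to 3.78).

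HBE1 therefore made up 15.4% of beta-cluster FPKM in the GPAT4ko library, against 62.6% in the WT palmitate library and 57.2% in the untreated WT library of the same table. The gamma share was 84.4%, against 37.4 and 42.6%. As untreated GPAT4ko cells were not analysed here, an effect of the knockout on the response to palmitate and a difference already present between the lines cannot be told apart.

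**Figure D4:**
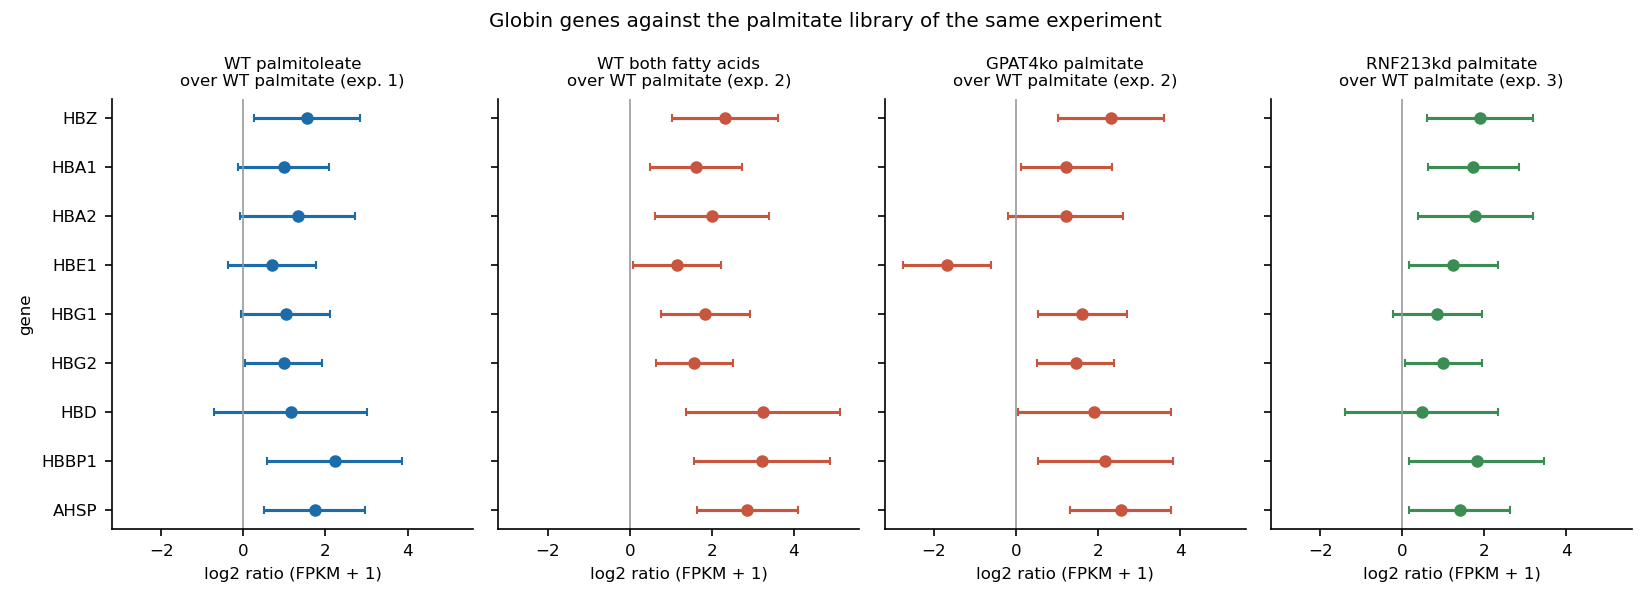
Log2 ratios (FPKM + 1) of 4 single libraries to the WT palmitate library of the same experiment, with 95% limma intervals that assume the spread of the WT palmitate ratios; colour gives the experiment. Points lie right of 0 in all panels except HBE1 in GPAT4ko cells, at -1.69.

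In RNF213kd cells the ratios of palmitate to untreated were also below 0, closer to 0 than the WT mean for all 9. HBG2 stood at 4600 FPKM with palmitate and 5327 FPKM without in RNF213kd cells, against 2298 and 4469 FPKM in WT cells of the same experiment. HBZ stood at 541 and 655 FPKM in RNF213kd cells, against 145 and 304 FPKM in WT cells, and HBA1 at 696 and 901 FPKM against 208 and 562.3 FPKM. HBE1 stood at 1160 and 1174 FPKM in RNF213kd cells, against 488 and 766 FPKM in WT cells.

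The RNF213kd ratios of palmitate to untreated ran from -1.49 for HBBP1 (95% interval -3.14 to 0.16) and -1.31 for HBD (-3.18 to 0.55) to -0.02 for HBE1 (-1.09 to 1.06). The interval of each of the 9 includes no change. HBE1 was at 0.01 with ratios centred on their median and at 0.03 with the GC trend removed. The ratios of HBBP1 and HBD were past 2-fold lower, as were 0.612% of tested genes. For 8 of 9 members the RNF213kd ratio lay above all 3 WT ratios, which was so for 17.1% of tested genes. HBD was the exception, at -1.315 against WT ratios of -1.305, -4.01 and -1.61. Set against the WT ratio of the same experiment, the RNF213kd ratio was 0.79 higher for HBZ, 0.75 for HBG2, 0.83 for AHSP and 1.69 for HBBP1, the largest of the 9, and 0.30 higher for HBD, the smallest. Set against the WT mean, the RNF213kd ratio was 1.66 higher for HBZ (95% interval 0.17 to 3.16) and 1.04 higher for HBG2 (-0.05 to 2.13). These intervals assume that the lone RNF213kd ratio varies as the WT ratios do. They are per gene, without adjustment for the number of genes tested, and included no difference for every tested member except HBZ. With 1 RNF213kd library per condition, that assumption could not be checked. A difference between the responses was not shown for HBZ or for the members as a set.

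Under palmitate, 7 of 9 members were at least 2-fold higher in RNF213kd than in WT cells, as were 0.486% of tested genes. The ratios were 1.89 for HBZ (95% interval 0.60 to 3.19), 1.78 for HBA2 (0.39 to 3.18), 1.74 for HBA1 (0.62 to 2.85) and 1.25 for HBE1 (0.17 to 2.32), while HBG1 was at 0.85 and HBD at 0.47. HBG2 lay at the threshold, at 1.00 (0.06 to 1.94). The count was 6 with ratios centred on their median, and also 6 with the GC trend removed. Without fatty acid the members also stood above WT, with HBZ past 2-fold at 1.11 (-0.19 to 2.40), as were 0.369% of tested genes, and the others from 0.12 for HBBP1 to 0.71 for HBA2. That untreated ratio followed GC content (Spearman's rho = 0.63), and with the trend removed 0 members were past 2-fold. The comparisons of RNF213kd with WT and the RNF213kd response share libraries and are not independent of each other.

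Regulators of the globin genes were read from a list of 25 genes, mostly of transcription factors, cofactors and RNA-binding proteins, and 24 of them were tested. In WT cells with palmitate 9 fell and 1 rose, where 7.52% of all tested genes were called lower and 9.33% higher. The median ratio of the list was -0.61, against -0.05 over all tested genes. KLF1, which binds CACCC elements of globin promoters, stood at 16.2, 3.54 and 7.82 FPKM with palmitate, against 71.8, 89.8 and 36.2 FPKM untreated, and fell by 2.83 ± 0.42 (adjusted p = 0.00588). NFE2, a subunit of the factor that binds globin enhancers, stood at 31.6, 6.04 and 21.0 FPKM with palmitate, against 151, 130 and 81.1 FPKM untreated, and fell by 2.78 ± 0.41 (adjusted p = 0.00581).

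LDB1, which links enhancers to globin promoters, fell by 2.00 ± 0.32, and the repressor gene GFI1B fell by 1.90 ± 0.32. IKZF1 fell by 1.79, MYB fell by 1.65, GATA1 fell by 1.46, LYL1 fell by 1.39 and LMO2 fell by 1.20. BACH1, a repressor that heme inactivates, was the 1 that rose, by 1.37 ± 0.24 (adjusted p = 0.009998), to 45.4, 43.0 and 25.5 FPKM with palmitate against 14.3, 13.8 and 12.9 FPKM untreated.

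KLF1 was also read across the single libraries. KLF1 stood at 70.1 FPKM with both acids and 48.4 FPKM in GPAT4ko cells with palmitate, against 3.54 FPKM in WT cells with palmitate. In RNF213kd cells it stood at 25.1 FPKM with palmitate and 59.96 FPKM without. With palmitoleate KLF1 stood at 44.6 FPKM, between palmitate at 16.2 and untreated at 71.8 FPKM.

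Of 19 genes of heme synthesis and iron supply 18 were tested, and 5 fell and 0 rose, against the same 7.52% and 9.33% over all tested genes. The median ratio of the list was -0.42, against -0.05. STEAP3, the endosomal iron reductase, fell by 1.71 ± 0.28 (adjusted p = 0.00777), and CPOX, a later enzyme of heme synthesis, was at -0.92 (adjusted p = 0.0758). ALAS2, the erythroid enzyme that starts the pathway, fell by 0.99, PPOX fell by 0.98, FECH, which inserts the iron, fell by 0.90, and the mitochondrial iron importer SLC25A37 fell by 0.89.

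The members varied together over the 8 libraries other than untreated WT, taken as differences from the untreated WT library of the same table. Each gene's Pearson correlation with the mean of the other 8 ran from 0.86 for HBZ to 0.98 for HBA2, but was 0.61 for HBE1. Among 8247 other genes with a mean of 5 FPKM or more, those most like the mean of the members were CDK12 (r = 0.99), METTL16, DUS2L, FBL, MRPS7 and LCMT2 (all 0.99). Their changes were smaller: in experiment 2 with palmitate CDK12 was at -0.93 and FBL at -1.43, against -2.75 for the mean of the members. These correlations are descriptions over 8 libraries that share untreated controls within each table.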

How the data were processed

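Libraries were made with a stranded mRNA kit and sequenced in paired ends, each from RNA of 3 pooled biological replicates, per the labels and design text. The authors aligned to hg19 using TopHat2, correcting for reads with several matches, and quantified with Cuffdiff, per the submitters' processing notes and design text; versions are not given in the sources used here. The deposited values are FPKM, scaled by the authors with Cuffdiff within 1 table per experiment. The tables also hold 2 libraries whose names match no labelled sample, which were not used; a legend in the table of experiment 2 calls one of them GPAT4-ko, but its name is not that of the labelled untreated GPAT4ko library.

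Left out were 26 symbols turned into dates in each table, genes marked as failed or capped, and genes listed with unequal values (relative tolerance 0.01). Ratios of log2(FPKM + 1) were formed within tables. For the WT response, limma 3.58.1 (R 4.3.3) moderated the 3 ratios per gene with an intensity trend (2 residual and 6.31 prior degrees of freedom). The 11108 genes averaging 1 FPKM or more over the 6 palmitate and untreated WT libraries were tested, with calls at a Benjamini-Hochberg adjusted p below 0.05. The procedure was run on simulated data with log2 changes of 3 in either direction. That is more than the mean change of any member but HBBP1, so the run does not show how well smaller changes are called. Experiments pair the libraries, per the labels: deviations of same-experiment libraries correlated at 0.456, 0.628 and 0.695, others at -0.525 to 0.0113. Deviations were taken from the mean of each condition, so positive correlations within experiments push those across experiments below them. Libraries of the same experiment were also scaled together. These correlations describe the pairing and do not test it. The p-values measure the spread between 3 experiments on pooled RNA. Fits without 1 experiment hold 2 ratios per gene and lean more on the variance shared across genes. Their limma adjusted p-values, at lowest 2.86e-119, are not comparable with those of the main fit. GC content came from the longest GRCh37 transcript for 87.0% of tested genes. No detection limits or counting intervals could be computed.

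The genes described and their lists were chosen with earlier results of these data known; 2 list genes are not reported here and were left out of their lists' counts and sums. Named besides them are, per pathway list, the called genes and the 4 largest changes, the 6 genes most alike, and marker genes, among them all that were called. Alternatives were other pseudocounts, filters, centring, pairing and trend settings, leaving out experiments or small RNA genes, and removing a GC trend.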

Additional observations from a re-analysis of the deposited data

How the results depend on the processing

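With limma, 1036 genes were called higher and 835 lower with palmitate in WT cells, and 8 of the 9 tested globin cluster genes and AHSP were lower. All 9 had a mean ratio below 0 under each of the 12 alternatives run, but the number of calls depended on the setting. With no filter on low values limma called 0 genes in either direction and 0 members (4284 genes had an unadjusted p under 0.05, and the lowest adjusted p was 0.0955). Without the replicate block, that is without pairing by experiment, it called 300 genes higher, 80 lower and 0 members (2552 with an unadjusted p under 0.05). With the filter taken over all 11 libraries, an alternative chosen after the data were seen, it called 752 higher, 467 lower and 7 members. Leaving out 1 experiment gave 560 to 1304 genes called higher, 255 to 1114 lower and 6 to 9 members, with the lowest counts without experiment 2. With the GC trend removed the members called were 6, the genes called 1473 higher and 1217 lower. Between single libraries, removing the GC trend left 2 members at least 2-fold higher for palmitoleate over untreated, where 0 were before, and 0 for untreated RNF213kd over untreated WT, where 1 was before. The count also went from 7 to 6 for RNF213kd over WT with palmitate, from 6 to 5 for palmitoleate over palmitate and from 8 to 7 for GPAT4ko over WT with palmitate. The cause was not tested. No result changed sign past its threshold under any alternative run. Depth is unknown, so low values such as those of HBM carry no stated precision.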
